A study of Mus musculus with 6 samples.

Results

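The Akr1c genes encode a branch of the aldo-keto reductases, and 9 of them were followed among the 54356 genes counted in mouse epididymal white adipose tissue: Akr1c6, Akr1c12, Akr1c13, Akr1c14, Akr1c18, Akr1c19, Akr1c20, Akr1c21 and Akr1cl. They were selected on their estimated counts in cold against control libraries, and each was read as its estimated counts in cold and control libraries beside Epcam, a surface gene of epithelial cells. The list was drawn up with that same contrast of these libraries known. Its cold against control values are therefore given as a description, without a test.

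Polyadenylated RNA came from the whole epididymal fat pad of male wild-type C57BL/6N mice aged 20 weeks, with 3 mice labelled cold (cold 7, cold 12 and cold 16) and 3 labelled ctrl (ctrl 5, ctrl 6 and ctrl 10). Cold exposure was 24 h at 4 °C with each animal alone, and general housing was at 22 to 24 °C with food and water freely available. The labels print the cold treatment for every sample, so it is not stated how the controls were housed in those 24 h. Each number is a mouse identifier, so each library is 1 animal.

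Aldo-keto reductases are soluble single-chain enzymes that use NADPH to turn a carbonyl group into an alcohol. The AKR1C branch acts on ketone groups of steroids and on prostaglandins, so its members move sex steroids, progesterone and related hormones between forms that bind their receptors well and forms that bind them poorly. In human fat some members of the branch are known to inactivate androgens or progesterone, while in the mouse the genes form a tandem array whose members differ in substrate and in tissue.

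In the mouse genome (build GRCm38, GENCODE M21), 8 of the 9 genes lay within 537.5 kb of chromosome 13. In order along the chromosome they were Akr1c14 (chr13:4049011-4090688, plus strand), Akr1c18 (chr13:4132615-4150654, minus), Akr1c13 (chr13:4191150-4205596, plus), Akr1c19 (chr13:4228700-4252843, plus), Akr1c12 (chr13:4268176-4279433, minus), Akr1c6 (chr13:4434306-4457877, plus), Akr1c20 (chr13:4486849-4523345, minus) and Akr1c21 (chr13:4574075-4586541, plus). Akr1cl, a related gene, lay apart on chromosome 1 (chr1:65012689-65032759, minus). The coding sequence measured 972 bases in 9 exons and encoded 323 amino acids in each of the 8 clustered genes. Akr1cl had 969 coding bases, 322 amino acids and 10 exons in its representative transcript.

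Akr1c12 and Akr1c13 stood out among the 36 pairs by their likeness. Their coding sequences matched at 96.2% of bases, with 37 differences and no gap, and the other 35 pairs ranged from 71.1 to 92.3%. The closest of those were Akr1c6 and Akr1c20 at 92.3%, whereas Akr1c19 matched both Akr1c12 and Akr1c13 at 77.8%. The stretch of 60 coding bases where Akr1c12 and Akr1c13 differed most, bases 343 to 402 counted from the start codon, is shown. Only read pairs that cover such differences tell the genes apart. Capitals mark the 9 differing bases.
Akr1c12: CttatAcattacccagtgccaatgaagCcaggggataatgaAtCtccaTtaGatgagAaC
Akr1c13: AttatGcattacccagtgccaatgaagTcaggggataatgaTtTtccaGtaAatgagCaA
Elsewhere the 2 coding sequences held 6 identical runs of at least 50 bases, the longest of 228 bases and together 636 bases. Of all 50-base words (the read length used here) of 1 representative transcript per gene, 71.4% were unique to the gene in both Akr1c12 and Akr1c13, and the remaining 28.6% were shared between these genes alone. The representative transcripts of Akr1c14, Akr1c19 and Akr1c21 shared no 50-base word with any other gene, Akr1c6 and Akr1c20 shared 2.08 and 2.17% of theirs with each other, and Akr1c18 and Akr1cl shared 0.608 and 0.409%. The longer Akr1c19-202 shared 4.19% of its words with Marcksl1 and its pseudogene Marcksl1-ps4, and Akr1c14-202 shared 5.90% with the pseudogene Gm18857. These words stand for single reads, whereas the libraries were paired-end, so the share of ambiguous read pairs was not measured. The division of reads between Akr1c12 and Akr1c13 is therefore uncertain.

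**Figure D1:**
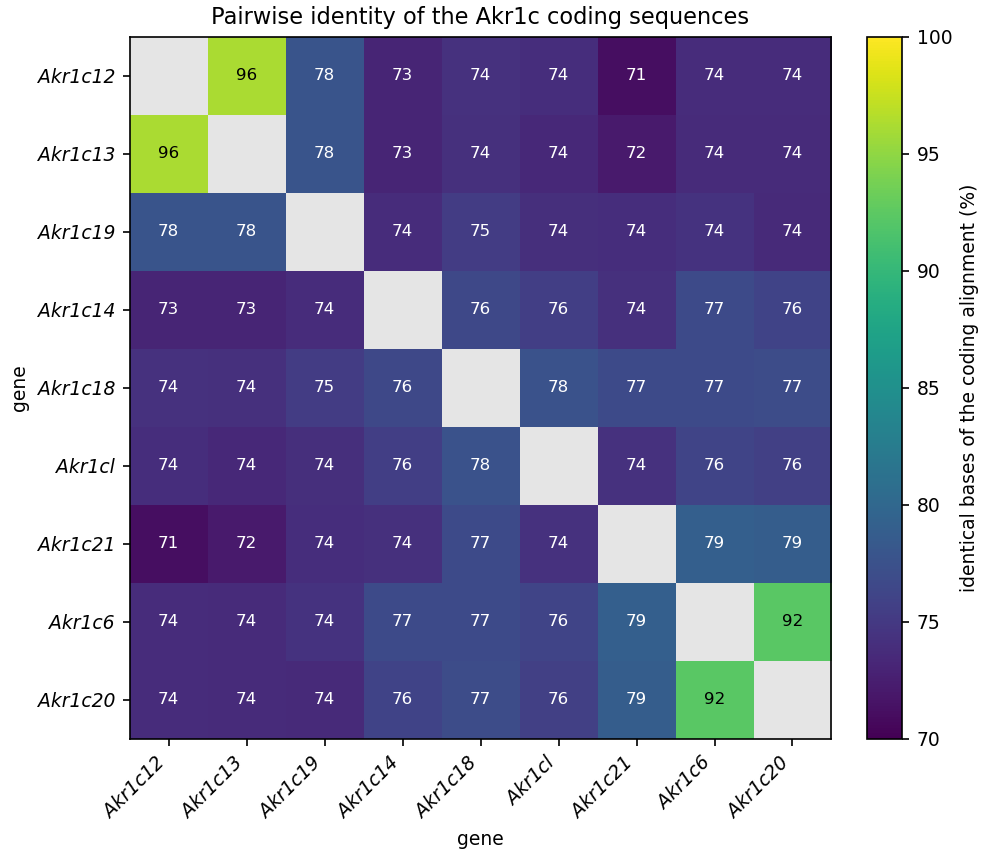
Pairwise identity of the coding sequences of the 9 Akr1c genes, in percent of aligned bases (colour and printed number, rows and columns are genes). The Akr1c12 and Akr1c13 square stands at 96 and the Akr1c6 and Akr1c20 square at 92, and the other pairs lie between 71 and 79.

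The sequences before the start sites showed the same neighbours in part. RefSeq gives a start window (build GRCm38.p6, 250 bases before to 50 after the start) for 8 of the 9 genes. The windows of Akr1c12 and Akr1c13 matched at 93.4%, Akr1c13 and Akr1c19 matched at 58.5% and Akr1c12 and Akr1c19 at 56.7%, and the other 25 pairs lay between 44.7 and 52.8%. The 250 bases before the start are shown for the 3 genes that stand next to each other on the chromosome: Akr1c12 (chr13:4279400-4279649, minus strand), Akr1c13 (chr13:4190937-4191186, plus) and Akr1c19 (chr13:4233490-4233739, plus). Capitals mark the word CATTAG, which was picked out after the letters had been read.
Akr1c12: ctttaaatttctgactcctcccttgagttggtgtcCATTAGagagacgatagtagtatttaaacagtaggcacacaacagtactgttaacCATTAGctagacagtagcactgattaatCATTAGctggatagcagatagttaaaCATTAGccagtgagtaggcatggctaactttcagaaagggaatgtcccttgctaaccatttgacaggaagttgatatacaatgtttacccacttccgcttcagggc
Akr1c13: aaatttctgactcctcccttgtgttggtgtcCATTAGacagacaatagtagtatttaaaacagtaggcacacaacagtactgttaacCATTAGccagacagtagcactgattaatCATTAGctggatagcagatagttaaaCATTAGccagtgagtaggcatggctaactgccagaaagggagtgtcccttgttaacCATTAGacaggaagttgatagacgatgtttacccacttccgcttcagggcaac
Akr1c19: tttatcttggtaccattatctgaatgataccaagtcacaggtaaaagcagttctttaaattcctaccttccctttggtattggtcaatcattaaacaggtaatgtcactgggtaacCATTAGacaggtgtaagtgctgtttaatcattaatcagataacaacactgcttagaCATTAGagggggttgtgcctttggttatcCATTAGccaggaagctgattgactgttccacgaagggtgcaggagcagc
CATTAG, read on both strands, occurred 4 times before Akr1c12, 5 times before Akr1c13 and 3 times before Akr1c19, and once each in the windows of Akr1c6 and Akr1c21. It was present at least once in 7.36% of all 32851 RefSeq windows and 3 or more times in 9 windows, of which these genes made up 3. The other 6 belonged to Gm34098, Fmo9, Gm38537, Gm51672, Gm34385 and Cyp2c39, genes named only for this count. Of common promoter words, also read on both strands, TATAAA (the TATA box) was found in Akr1c6 alone among the 8 windows and in 13.6% of all windows, and CCAAT in Akr1c6, Akr1c14, Akr1c19 and Akr1cl and in 37.4% of all windows. AGAACA, a word of glucocorticoid and androgen receptor sites, was found in Akr1cl alone and in 19.0% of all windows. TGACNNNGC, the antioxidant response element core, was found in Akr1c19 and Akr1cl and in 12.4% of all windows. These are matches of letters and no factor binding was measured.

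Libraries held 19657338 to 28572518 estimated counts in annotated genes. Adipocyte genes were high throughout, with 10 markers summing to 37120 to 39382 CPM (counts scaled to library size) in cold and 36445 to 42000 CPM in control libraries. The libraries were not fat alone. The 12 epithelial markers summed to 167 to 303 CPM in cold and 14.6 to 53.8 CPM in control libraries, 5 were called higher in the cold (edgeR quasi-likelihood fit, p adjusted by Benjamini-Hochberg), and Epcam had 476, 1131 and 1249 counts in cold 7, cold 12 and cold 16, against 137, 19 and 7 in ctrl 5, ctrl 6 and ctrl 10. Markers of epididymal epithelium summed to 0.747 to 143 CPM in cold and 0.402 to 2.52 CPM in control libraries, with Lcn9 and Cst11 at 0 in all 6 libraries and Crisp1, named after its values were seen, at 2555 counts in cold 7. Seminal vesicle markers summed to 0.275 to 7.27 CPM in cold and 0.0447 to 192 CPM in control libraries, the highest in ctrl 10. Mesothelial markers summed to 94.6 to 299 CPM in cold and 124 to 323 CPM in control libraries. Motile cilium markers summed to 142.5 to 242 CPM in cold and 49.8 to 87.4 CPM in control libraries, and 8 germ cell markers summed to 3.88 to 72.0 CPM in cold and 0.0826 to 4.11 CPM in control libraries. In bulk tissue, fewer cells of a type and less RNA per cell cannot be told apart, and the part that such tissue plays in the values below was not tested beyond the comparison with epithelial genes given with them.

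Per transcript length, Akr1c13 was the main Akr1c transcript in these libraries and Akr1c19 differed most between the groups. In TPM (counts divided by transcript length, then scaled to the library), the 9 genes together reached 46.9, 42.2 and 39.8 TPM in cold 7, cold 12 and cold 16, against 33.1, 33.5 and 34.2 TPM in ctrl 5, ctrl 6 and ctrl 10. Every cold library lay above every control, which in CPM was so for 12.7% of single genes tested. The means were 42.9 ± 3.64 TPM in cold and 33.6 ± 0.536 TPM in control libraries (SD, n = 3 each), a ratio of 1.28. This sum includes Akr1c19, with a mean of 6.70 TPM in cold and 0.382 TPM in control libraries. It is a description alone and does not show that the genes rose as a group. Akr1c13 made up 63.3 ± 0.630% of this sum in cold and 76.6 ± 3.59% in control libraries, Akr1c19 made up 15.7 ± 1.39% in cold and 1.15 ± 1.33% in control libraries, Akr1c14 6.91 ± 1.25% in cold and 12.0 ± 1.51% in control libraries, and Akr1c12 9.61 ± 1.70% in cold and 5.60 ± 1.15% in control libraries (SD, n = 3 each). The larger sum in the cold therefore held the same main gene with more of Akr1c19 and Akr1c12 and less of Akr1c14.

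**Figure D2:**
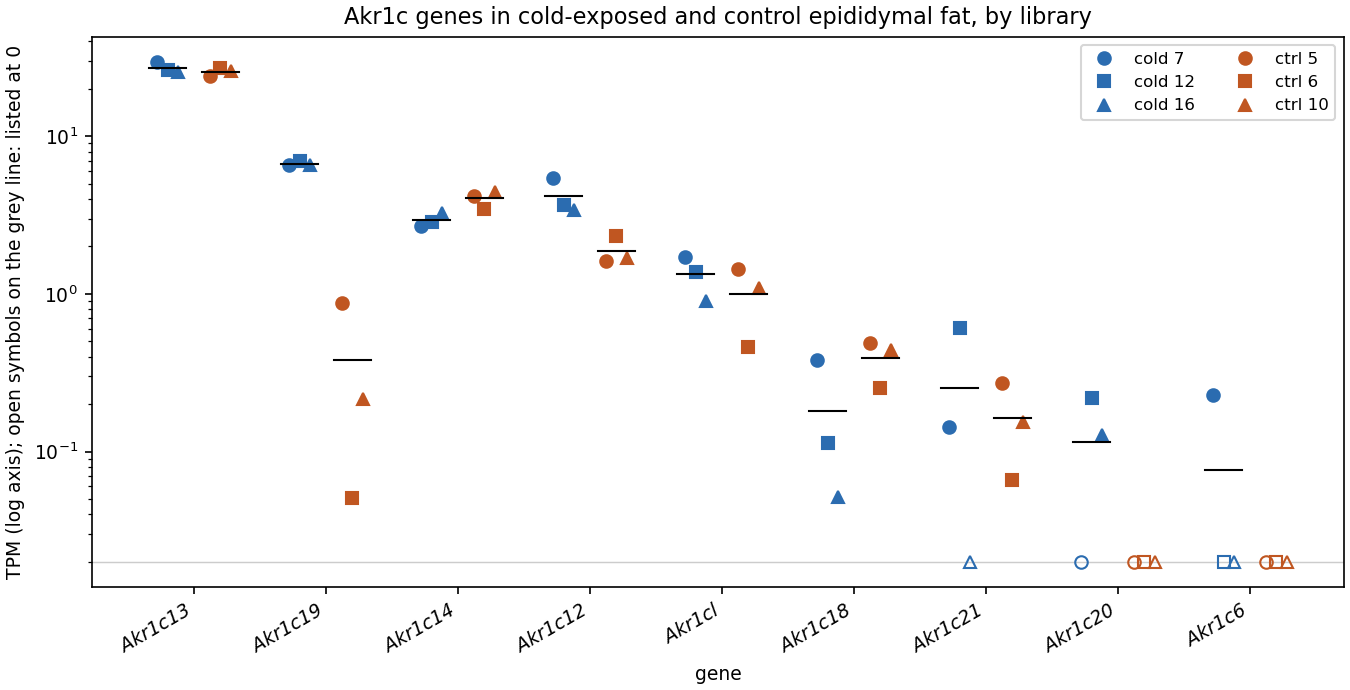
TPM of each Akr1c gene on a log axis in the 3 cold (blue, left of each gene) and 3 control libraries (orange, right), with a bar at the mean of each group; open symbols on the grey line are values listed at 0. Akr1c13 lies at 24.2 to 29.7 TPM in all 6 libraries, and Akr1c19 lies at 6.58 to 6.93 TPM in cold and 0.0509 to 0.878 TPM in control libraries.

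The order of levels differed between the groups in the place of Akr1c19 and in that of Akr1c12 and Akr1c14, which changed places. In cold libraries Akr1c13 was followed by Akr1c19, Akr1c12, Akr1c14 and Akr1cl, with mean TPM of 27.2, 6.70, 4.17, 2.94 and 1.33, and no 2 neighbours in that order overlapped. In control libraries Akr1c13 was followed by Akr1c14, Akr1c12 and Akr1cl, with mean TPM of 25.8, 4.04, 1.88 and 0.995, again with no overlap between neighbours. Below them in controls, Akr1c18 at 0.394 TPM, Akr1c19 at 0.382 TPM and Akr1c21 at 0.164 TPM overlapped, as did Akr1cl and Akr1c18. Akr1c20 and Akr1c6 were listed at 0 in all 3 controls.

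Of the 9 genes, 5 passed the filter on low counts (Akr1c12, Akr1c13, Akr1c14, Akr1c19 and Akr1cl) and 4 did not. In the fit over all 17852 genes tested, 415 genes, 2.32%, were called higher in the cold and 101, 0.566%, lower, at an adjusted p under 0.05. Akr1c19 was called higher and no Akr1c gene was called lower; since the genes were chosen with this contrast known, and Akr1c19 could pass the filter through its cold libraries alone, nothing is read from that count. Every cold library lay above every control in CPM for Akr1c12 and Akr1c19, against 12.7% of all genes tested, and in none of the 5 did every cold library lie below every control, against 11% of all genes. The median log2 fold change of the 5 was 0.71, which is the value of Akr1cl, whose groups overlapped, beside -0.01 for all genes tested. For the same reasons as the count, the separation and the median are a description alone.

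Akr1c19 was close to absent from control libraries and clearly present in cold libraries. It had 123, 171 and 180 counts in cold 7, cold 12 and cold 16, against 14, 4 and 4 in ctrl 5, ctrl 6 and ctrl 10. The lowest cold library stood well above the highest control, which was ctrl 5, and the other controls lay near the 3 counts below which a gene was treated as undetectable. Levels averaged 6.13 ± 0.684 CPM in cold and 0.321 ± 0.223 CPM in control libraries (SD, n = 3 each), with 4.20 (SE 0.39) as log2 fold change. Leaving out 1 library at a time gave log2 fold changes from 3.92 to 4.97, the highest without ctrl 5. Akr1c19 was not called without cold 12, cold 16, ctrl 6 or ctrl 10, settings in which at most 2 genes of all those tested were called higher. As in the main fit, nothing is read from these calls. With ctrl 5 and cold 7 both left out, a setting chosen after the data were seen, the log2 fold change was 5.06.

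Set beside Epcam, the difference of Akr1c19 between the groups was close in size to that of the epithelial gene. Its counts were 25.8, 15.1 and 14.4% of those of Epcam in cold 7, cold 12 and cold 16, against 10.2, 21.1 and 57.1% in ctrl 5, ctrl 6 and ctrl 10, and the groups overlapped. The shares in ctrl 6 and ctrl 10 rested on 4 counts of Akr1c19 each, beside 19 and 7 counts of Epcam. The control ratios to epithelial genes are therefore imprecise. On the log2 scale its level relative to Epcam was -2.49 ± 0.468 in cold and -2.12 ± 1.25 in control libraries, a difference of -0.38. Relative to E-cadherin, Cdh1, that difference was -0.33 with overlap, whereas relative to the simple keratin Krt8 it was 1.55 without overlap. Epcam itself stood at 3.93 as log2 fold change (SE 0.89, edgeR Benjamini-Hochberg adjusted p = 0.0971). The fitted value of Akr1c19, 4.20, was the larger, so the sign of its small difference from Epcam depends on how the libraries are averaged. Krt8 differed less between the groups, at 2.71 (SE 0.58, edgeR Benjamini-Hochberg adjusted p = 0.0829). In ctrl 10 Krt8 had 154 counts, against 7 for Epcam, so the epithelial references do not measure the same thing in every library. Akr1c19 alone of the 5 genes had its top control value in ctrl 5 and its bottom cold value in cold 7, the order also seen in Epcam and in 14.8% of all genes tested. Whether Akr1c19 RNA came from fat cells or from epithelium cannot be told apart in these libraries.

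**Figure D3:**
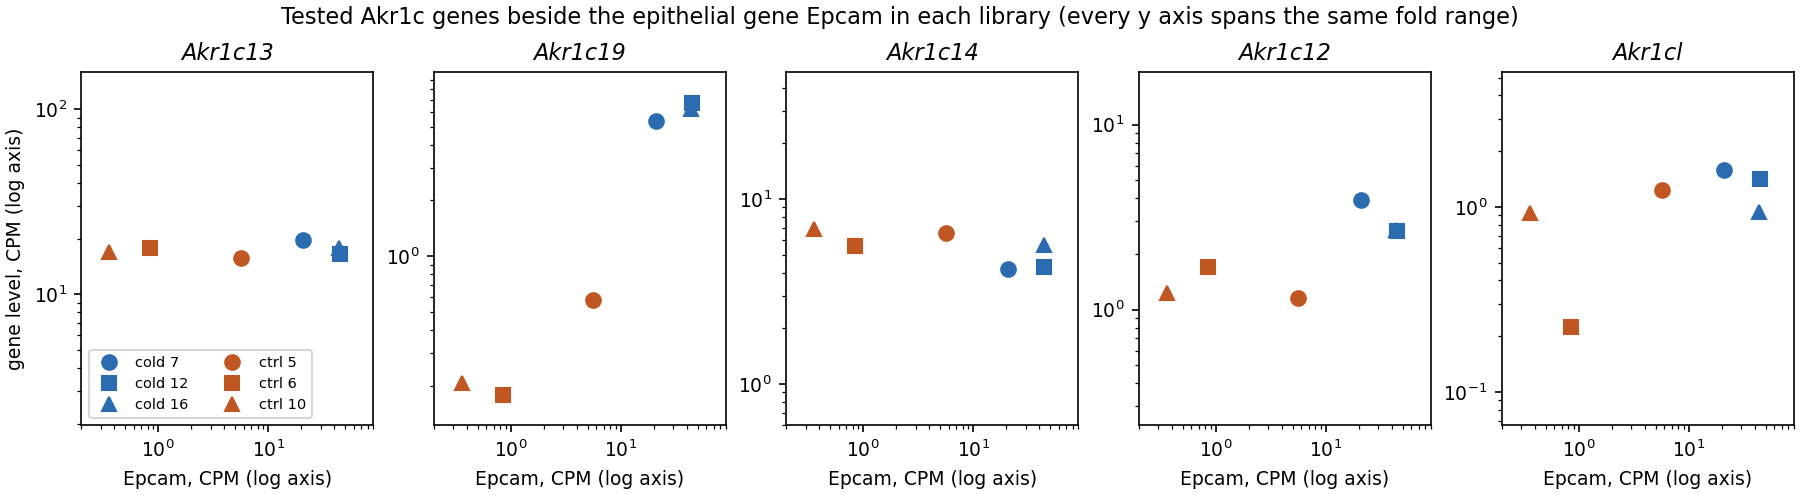
Level of each of the 5 tested Akr1c genes (CPM, log axis, each panel spanning the same fold range) against Epcam (CPM, log axis), one point per library, cold in blue and control in orange. Akr1c19 and Epcam are both higher in every cold library than in any control, whereas Akr1c13 stays between 15.8 and 19.7 CPM while Epcam runs from 0.359 to 44.5 CPM. Among the cold libraries alone, Akr1c19 lies at 5.38 to 6.72 CPM and Epcam at 20.8 to 44.5 CPM.

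The Akr1c19 reads were divided over 3 annotated coding transcripts. Akr1c19-201, whose start is that of the sequence shown above and which shared no word with another gene, had 88.2, 115.3 and 122.2 estimated counts in cold 7, cold 12 and cold 16, against 10.95, 0 and 2.81 in ctrl 5, ctrl 6 and ctrl 10. In the cold it took 71.7, 67.4 and 67.9% of the gene's counts in cold 7, cold 12 and cold 16. The longer Akr1c19-202, which starts upstream, took 22.4, 32.6 and 27.6% in the same libraries, and the short Akr1c19-203 took 5.90, 0 and 4.51%. In controls the same split rested on 14, 4 and 4 counts and is not read.

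Akr1c13, the most abundant of the group, differed little. It had 450, 423 and 512 counts in cold 7, cold 12 and cold 16, against 383, 400 and 330 in ctrl 5, ctrl 6 and ctrl 10. Its levels were 19.7, 16.6 and 17.9 CPM in cold 7, cold 12 and cold 16, against 15.8, 17.9 and 16.9 CPM in ctrl 5, ctrl 6 and ctrl 10. The groups overlapped, with means of 18.1 ± 1.54 CPM in cold and 16.9 ± 1.03 CPM in control libraries (SD, n = 3 each) and a log2 fold change of 0.10 (SE 0.10). That value was -0.01 with ctrl 5 and cold 7 both left out. Relative to Epcam its log2 level was -0.93 ± 0.737 in cold and 3.81 ± 2.10 in control libraries, a difference of -4.74, and relative to Krt8 the difference was -2.81, both with no overlap. Epcam and Krt8 were themselves higher in every cold library than in any control. A gene that hardly differs is thus lower relative to them in the cold, and nothing is read about Akr1c13 from these gaps. A transcript annotated as a target of nonsense-mediated decay, Akr1c13-202, took 17.8, 20.3 and 23.7% of its counts in cold 7, cold 12 and cold 16, against 16.4, 21.1 and 22.9% in ctrl 5, ctrl 6 and ctrl 10, and so overlapped between the groups.

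Akr1c12, its near copy, was low but separated the groups. It had 90, 68 and 77 counts in cold 7, cold 12 and cold 16, against 28, 38 and 24 in ctrl 5, ctrl 6 and ctrl 10. All cold libraries lay above all controls, with 3.10 ± 0.726 CPM in cold and 1.36 ± 0.294 CPM in control libraries (SD, n = 3 each) and a log2 fold change of 1.18 (SE 0.28). Left-out libraries moved this value between 0.97 without cold 7 and 1.38 without ctrl 6, and it was 0.87 without ctrl 5 and cold 7. In contrast to Akr1c19 its highest library was cold 7, the cold library with the least Epcam. Relative to Epcam its log2 level was -3.49 ± 0.944 in cold and 0.16 ± 2.16 in control libraries, a difference of -3.65. The groups did not overlap, but only by a narrow margin, with -2.40 in cold 7 and -2.29 in ctrl 5. Relative to Krt8 the difference was -1.73 with overlap. As for Akr1c13, these ratios carry the differences of Epcam and Krt8 between the groups.

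Because Salmon must share reads between Akr1c12 and Akr1c13, the pair was also summed, a choice made after the data were seen. Together they had 540, 491 and 589 counts in cold 7, cold 12 and cold 16, against 411, 438 and 354 in ctrl 5, ctrl 6 and ctrl 10. The sum averaged 21.2 ± 2.23 CPM in cold and 18.2 ± 1.31 CPM in control libraries (SD, n = 3 each), a log2 ratio of 0.21, with overlap between cold 12 and ctrl 6. Akr1c12 was given 16.7, 13.8 and 13.1% of the pair's counts in cold 7, cold 12 and cold 16, against 6.86, 8.77 and 6.80% in ctrl 5, ctrl 6 and ctrl 10. Akr1c12 is the smaller share of the pair, so its difference is small within the sum, and how far the sharing of ambiguous reads enters it was not tested.

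**Figure D4:**
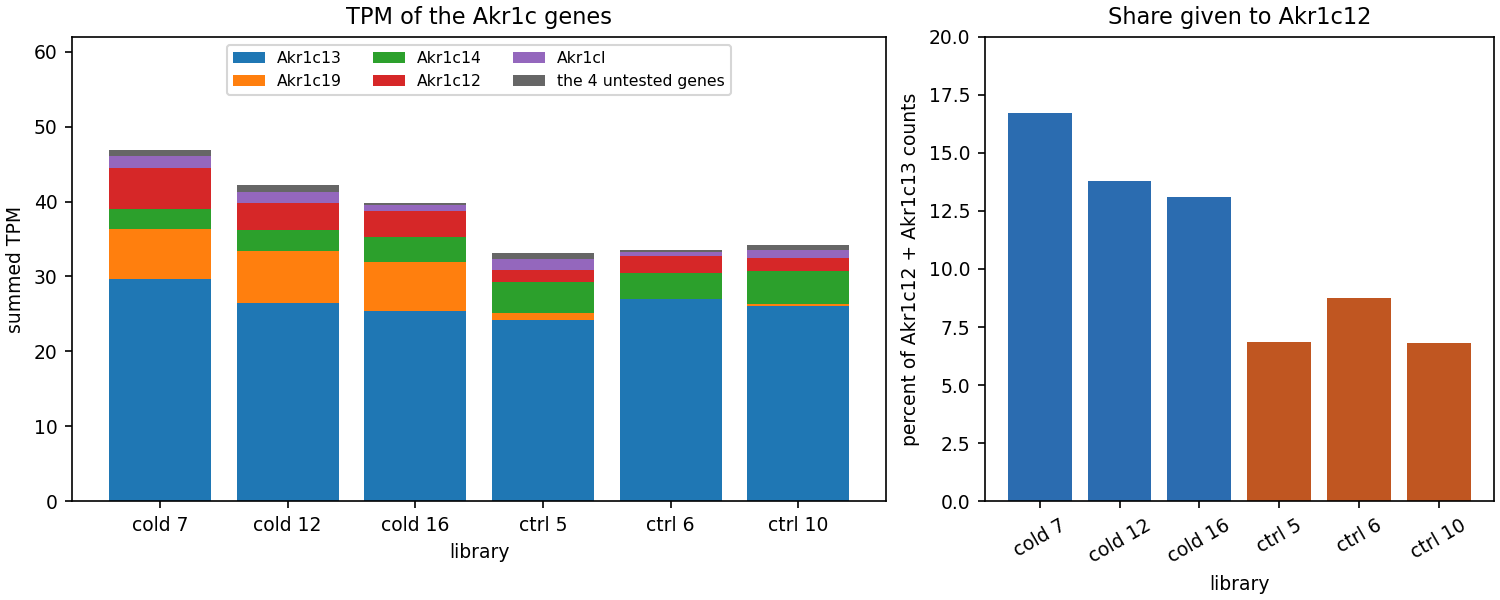
Left, summed TPM of the 9 Akr1c genes in each library, stacked by gene, with cold libraries left of controls; right, percent of the summed Akr1c12 and Akr1c13 counts given to Akr1c12. The stacks reach 39.8 to 46.9 TPM in cold and 33.1 to 34.2 TPM in control libraries, and the Akr1c12 share is 13.1 to 16.7% in cold and 6.80 to 8.77% in controls.

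Akr1c14, the 3α-hydroxysteroid dehydrogenase that reduces dihydrotestosterone and dihydroprogesterone, was the tested gene with a lower mean in the cold. It had 96, 109 and 161 counts in cold 7, cold 12 and cold 16, against 159, 125 and 134 in ctrl 5, ctrl 6 and ctrl 10. In CPM it had 4.20, 4.29 and 5.62 in cold 7, cold 12 and cold 16, against 6.57, 5.59 and 6.88 in ctrl 5, ctrl 6 and ctrl 10. Cold 16 and ctrl 6 overlapped by a narrow margin. The means were 4.70 ± 0.796 CPM in cold and 6.34 ± 0.674 CPM in control libraries (SD, n = 3 each), with a log2 fold change of -0.43 (SE 0.18) and -0.58 to -0.35 when 1 library was left out. In TPM the groups did not overlap, with 2.69, 2.85 and 3.27 in cold 7, cold 12 and cold 16, against 4.20, 3.45 and 4.46 in ctrl 5, ctrl 6 and ctrl 10. Relative to Epcam, Akr1c14 differed by -5.28 (cold minus control) on the log2 scale, and relative to Krt8 by -3.35, both with no overlap. As for Akr1c13, most of each gap is the difference of the epithelial gene itself. Akr1c14-201 took most of its counts in every library, 66.0, 85.8 and 72.2% in cold 7, cold 12 and cold 16, against 64.0, 63.9 and 75.0% in ctrl 5, ctrl 6 and ctrl 10.

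Akr1cl, the gene on chromosome 1, was near 1 CPM. It had 36, 36 and 27 counts in cold 7, cold 12 and cold 16, against 30, 5 and 18 in ctrl 5, ctrl 6 and ctrl 10. The groups overlapped through ctrl 5, and the log2 fold change was 0.71 (SE 0.53), ranging from 0.28 without ctrl 6 to 1.21 without ctrl 5. With an offset for transcript length it was 0.39.

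The steroid dehydrogenases best known from other organs were at the edge of detection. Akr1c18, the 20α-hydroxysteroid dehydrogenase that inactivates progesterone in the mouse ovary, had 6, 2 and 1 counts in cold 7, cold 12 and cold 16, against 8, 4 and 6 in ctrl 5, ctrl 6 and ctrl 10. Akr1c21, a 17α-hydroxysteroid dehydrogenase of mouse kidney, had 1, 6 and 0 counts in cold 7, cold 12 and cold 16, against 2, 1 and 2 in ctrl 5, ctrl 6 and ctrl 10. These overlapped and no difference in these genes could be detected at this depth. Akr1c20 had 0, 3 and 3 counts in cold 7, cold 12 and cold 16 and 0 in each control, and Akr1c6, the 17β-hydroxysteroid dehydrogenase of mouse liver, had 2, 0 and 0 counts in the cold and 0 in each control. A count of 0 allows up to 3 counts, which is 0.105 to 0.132 CPM in cold and 0.125 to 0.153 CPM in control libraries, so no fold change is given for these genes.

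The genes differed among themselves along chromosome 13. Akr1c19 at 4.20 lay between Akr1c13 at 0.10 and Akr1c12 at 1.18, and Akr1c14 at the proximal end stood at -0.43, all as log2 fold changes. From 500 kb before Akr1c14 to 500 kb after Akr1c21 the annotation holds 31 other genes. Of these, 13 were tested and 0 were called by edgeR (1 with unadjusted p under 0.05 and 1 called by DESeq2, in both cases the calmodulin-like gene Calml3), with a median log2 fold change of 0.06. Among all 17852 genes tested, 3148 had an unadjusted edgeR p under 0.05. Calml3 stood at 4.45 (SE 1.08, edgeR Benjamini-Hochberg adjusted p = 0.115), with 509, 1784 and 2197 counts in cold 7, cold 12 and cold 16, against 156, 19 and 2 in ctrl 5, ctrl 6 and ctrl 10, the order of Epcam. Akr1e1, the aldo-keto reductase gene just beyond Akr1c21, had 23.1 ± 0.847 CPM in cold and 23.9 ± 2.39 CPM in control libraries (SD, n = 3 each) and stood at -0.05 (SE 0.09) on the log2 scale. Gm9973, a transcribed pseudogene between Akr1c12 and Akr1c6 (chr13:4350397-4391265, minus strand), had more counts than any Akr1c gene, with 3268, 1347 and 1259 in cold 7, cold 12 and cold 16, against 1573, 848 and 1278 in ctrl 5, ctrl 6 and ctrl 10. It stood at 0.51 on the log2 scale (SE 0.53, edgeR Benjamini-Hochberg adjusted p = 0.710) and at -0.22 without cold 7, and it shared 0 words of 50 bases with the Akr1c genes. Calml3 and Gm9973 were named after their values were seen.

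**Figure D5:**
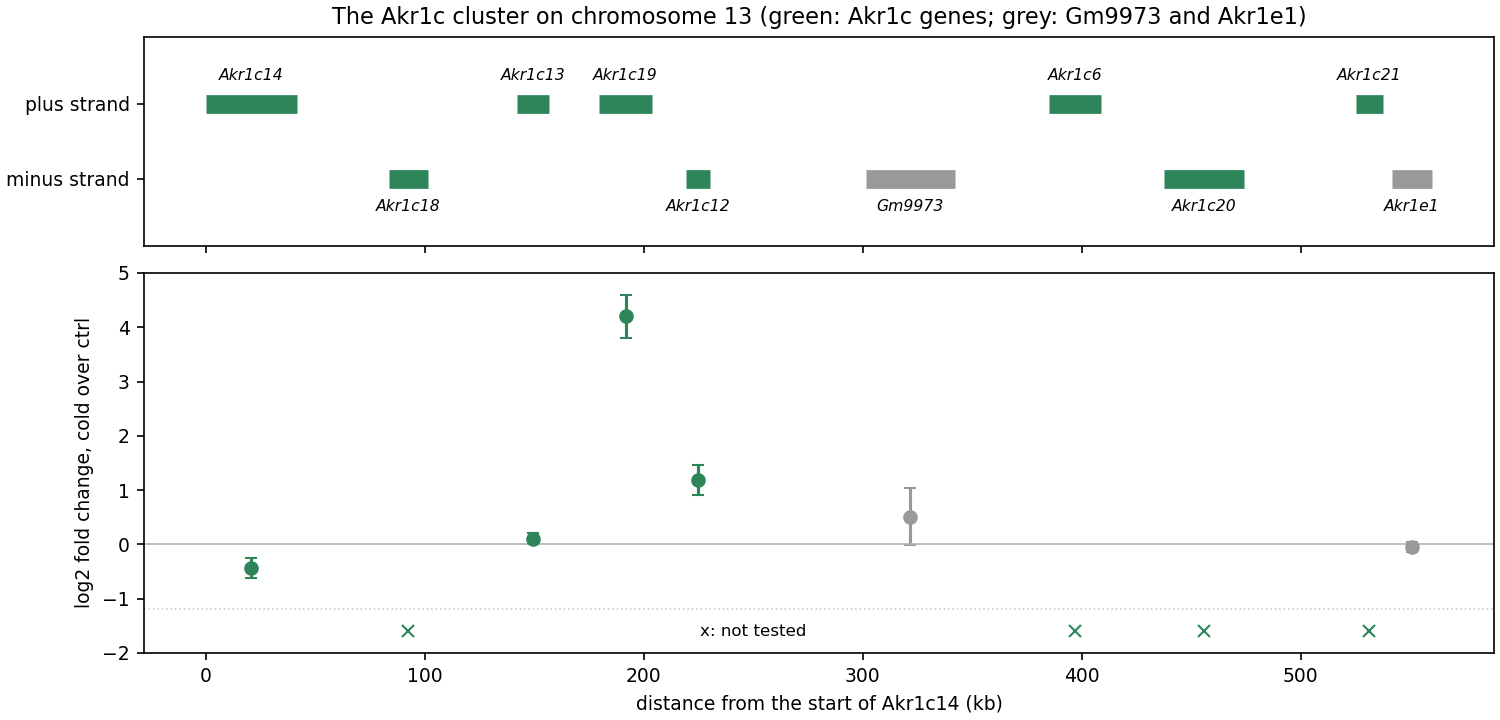
Top, the 8 clustered Akr1c genes (green) with Gm9973 and Akr1e1 (grey) by strand and distance from the start of Akr1c14 in kb; bottom, the log2 fold change of cold over control of each gene, with its SE as a bar and crosses for genes not tested. The values are -0.43 for Akr1c14, 0.10 for Akr1c13, 4.20 for Akr1c19, 1.18 for Akr1c12, 0.51 for Gm9973 and -0.05 for Akr1e1.

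The genes whose pattern over the 6 libraries lay nearest were looked up for the 3 members with the highest mean CPM. Likeness was the root mean square distance of library-centred log2 CPM over 6 libraries, among 11022 genes. For Akr1c13 the nearest were Actr10 at 0.016, Copz1 at 0.024 and Arpc2 at 0.029, and Epcam ranked 10990. For Akr1c14 they were Rras at 0.060, Car11 at 0.062 and Rasgrp3 at 0.081, with Epcam at rank 10991. For Akr1c19 they were Gipc2 at 0.41, Rec8 at 0.44 and Cited4 at 0.45, with Epcam at rank 61 and a distance of 0.84. Distance on this measure depends on the size of the cold against control difference, which was known when the genes were chosen, so these ranks are a description alone.

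Lists of related genes give the setting of the Akr1c values, with the counts by edgeR adjusted over all genes tested. Among all 17852 genes tested, 3148 had an unadjusted edgeR p under 0.05, and the unadjusted counts below are to be read beside that share. Of 11 other aldo-keto reductase and related potassium channel beta genes 9 were tested and 0 passed (2 with unadjusted p under 0.05, 0 by DESeq2), with a median log2 fold change of 0.13. Akr7a5 stood at 0.27 (adjusted p = 0.0810), and Akr1a1, the general aldehyde reductase, at 0.13, with 508.7 ± 28.6 CPM in cold and 464 ± 27.2 CPM in control libraries. Of 34 other genes of steroid synthesis and conversion, 32 were in the files, 21 were tested, 0 were higher and 2 were lower in the cold, with a median of 0.05 (3 with unadjusted p under 0.05; 1 higher and 2 lower by DESeq2). The gene called higher by DESeq2 was the retinol dehydrogenase Rdh16, with 15.9 ± 8.06 CPM in cold and 1.75 ± 2.09 CPM in control libraries (edgeR log2 fold change 3.15, SE 0.96, adjusted p = 0.175, and 0.0410 without ctrl 5), every cold library lying above every control. Rdh16 had its highest control in ctrl 5 and its lowest cold library in cold 7, the order of Epcam and of 14.8% of all genes tested. Sult1e1, the estrogen sulfotransferase, fell to 30.8 ± 4.21 CPM in cold, against 48.9 ± 3.70 CPM in control libraries (log2 fold change -0.67, SE 0.11, adjusted p = 0.0312). H6pd, the enzyme that supplies NADPH in the endoplasmic reticulum, fell to 532 ± 37.6 CPM in cold, against 714 ± 34.7 CPM in control libraries (-0.42, SE 0.09, adjusted p = 0.0430). Both missed the threshold without cold 12, cold 16, ctrl 5, ctrl 6 or ctrl 10, and H6pd also without cold 7, with edgeR adjusted p up to 0.137 for Sult1e1 and 0.152 for H6pd.

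Steroid receptor, prostaglandin and oxidative response genes were counted in the same way, beside the same 3148 of 17852 genes with unadjusted edgeR p under 0.05. Of 7 tested steroid receptor genes 0 passed the edgeR threshold (3 with unadjusted p under 0.05, 1 by DESeq2), with a median of -0.08. The estrogen receptor gene Esr1 stood at 0.93 (SE 0.18, edgeR adjusted p = 0.0507), with 65.3 ± 14.99 CPM in cold and 34.4 ± 5.10 CPM in control libraries. Esr1 also had its highest control in ctrl 5 and its lowest cold library in cold 7, the order of Epcam. It passed in 6 of 11 other settings, by DESeq2 and, in edgeR, with RLE size factors (0.0475), with the length offset (0.0455), without cold 7 (0.0121), without ctrl 5 (0.0475) and without both (0.00317), and its adjusted p in the rest was up to 0.163. Of 18 tested prostaglandin genes 1 was higher, the prostaglandin D synthase Ptgds (22.0 ± 2.62 CPM in cold, 1.49 ± 1.20 CPM in control libraries, edgeR adjusted p = 0.0313), which missed the threshold with no filter (0.0825) and without cold 12, cold 16, ctrl 6 or ctrl 10 (up to 0.132), 0 were lower, and the median was 0.07. Of 19 tested genes of the NRF2 oxidative response, a pathway known in human cells to raise AKR1C genes, 0 passed the edgeR threshold (3 with unadjusted p under 0.05, 1 by DESeq2). Their median was 0.17, with Gsta4 at 0.36 (adjusted p = 0.0559).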

How the data were processed

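Strand-specific paired-end libraries of polyadenylated RNA with 50 nt reads were made from frozen fat pads, per the labels' protocols. The submitters' processing notes name bcl2fastq, cutadapt, Salmon and the build GRCm38, with no versions or settings in the sources used here. Per the file headers, the authors deposited estimated counts, TPM and effective lengths for 140658 transcripts per library. The Akr1c genes and all gene lists were chosen with earlier results of these data known.

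Identifiers were matched to GENCODE M21, 140137 of them without version numbers. The 521 unmatched ones held 0.124 to 0.394% of a library's counts and were left out. Estimated counts were summed per gene and rounded. In R 4.3.3, edgeR 4.0.16 kept genes by filterByExpr (minimum count 10 in 3 libraries, total 15), scaled by TMM, and fitted glmQLFit (robust) and glmQLFTest, two-sided, with Benjamini-Hochberg adjustment and a threshold of 0.05. An exact permutation test of 3 against 3 cannot go below 0.10. The steps were tested on simulated data. Deposited TPM served for levels between genes; means are ± SD. Limits at 3 counts cover counting error only.

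Coding sequences (the longest per gene) and start windows were aligned with Biopython 1.88. Genes named were the 9 Akr1c genes, Epcam, up to 3 genes of smallest p per list, and 3 nearest genes for 3 members (mean of at least 5 CPM, 0.1 CPM added, no predicted or clone names). Alternatives were RLE size factors, no filter, DESeq2 1.42.0, a length offset, TPM, Cdh1 or Krt8 in place of Epcam, and each library left out. Leaving out ctrl 5 with cold 7, and summing Akr1c12 with Akr1c13, were added after seeing the data. The labels give no batch or date.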

Additional observations from a re-analysis of the deposited data

How the results depend on the processing

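Among settings for the whole fit, genes higher in the cold numbered 696 without a filter and 1036 by DESeq2, 1145 without ctrl 5 and cold 7, and 0 to 929 with 1 library left out. Genes lower numbered 228 without a filter, 304 by DESeq2, 58 with the length offset, and 0 to 161 with 1 library left out. None passed without ctrl 6, ctrl 10 or cold 12 (smallest edgeR adjusted p 0.0589, 0.0947 and 0.0562; 3071, 2835 and 2546 genes had unadjusted p under 0.05). Akr1c genes called higher were 2 without a filter and 2 by DESeq2, Akr1c12 joining Akr1c19, and 0 to 1 with 1 library left out. All genes tested numbered 34880 without a filter and 17852 by DESeq2. Nothing is read from these Akr1c counts, since the genes were chosen with this contrast known. Related genes called higher were 2 by RLE, 4 by DESeq2, 2 with the length offset, 4 without ctrl 5 and cold 7, and 0 to 4 with 1 library left out. Related genes called lower were 1 without ctrl 5 and cold 7, and 0 to 1 with 1 library left out. Neighbours on chromosome 13 called were 1 by DESeq2, 1 without ctrl 5 and cold 7, and 0 to 1 with 1 library left out. The log2 fold change of Akr1c19 was 5.06 without ctrl 5 and cold 7 and 3.92 to 4.97 with 1 library left out. That of Akr1c12 was 0.87 without ctrl 5 and cold 7, and both Akr1c12 and Akr1c13 stood at 0.21 when summed. The ranges with 1 library left out were 0.97 to 1.38 for Akr1c12, 0.03 to 0.17 for Akr1c13, -0.58 to -0.35 for Akr1c14 and 0.28 to 1.21 for Akr1cl. The cause of these shifts was not tested. Of 548 further checks of single genes and ratios, 468 were counted as unchanged, 55 lost and 20 gained a call, and 5 moved, all with Krt8 in place of Epcam. A single gene counted as unchanged if it stayed on its side of the threshold, even where its sign changed with no call in either fit. Gm9973, at 0.51 in the main fit and -0.22 without cold 7, was such a case. A ratio counted as unchanged if it moved within the spread. No paired analysis was possible because the mouse numbers differ between the groups. Depth limits Akr1c6, Akr1c18, Akr1c20 and Akr1c21, and the control level of Akr1c19, to a few counts.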
